A study of Mus musculus with 15 samples.

Results

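The thick ascending limb of the loop of Henle was followed here through 9 genes, out of 47069 in the deposited table, in libraries made from a different part of the nephron. The genes are Umod, Slc12a1, Egf, Wfdc15b, Ptger3, Kcnj1, Bsnd, Sostdc1 and Ppp1r1b. They were picked by name, with their values in these libraries already known, and each symbol matched 1 row. RNA-Seq libraries had been made from 12 single tubules, dissected by hand and labelled PTS2 (proximal tubule), and from whole kidney in 3 replicates. All came from male C57BL/6 mice aged 2 months, and the labels name no treatment. The tubules fall into sets m1, m2 and m3 of 4 libraries each. The labels do not say what the letter m stands for, how the segment was recognized, or whether replicates came from separate animals, so p-values below measure only the spread between these libraries. Values are TPM, which are scaled to transcript length and to a total of 1000000 per library. They keep no sequencing depth, so no counting error can be given.

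The thick ascending limb reabsorbs salt without water and so dilutes the urine. Slc12a1 brings sodium, potassium and chloride in across the apical membrane, Kcnj1 returns the potassium to the lumen, and Bsnd encodes a subunit needed for the exit of chloride. The same cells secrete uromodulin, the product of Umod, and their voltage drives calcium and magnesium between the cells through claudins. The proximal tubule uses other transporters, and the members of this group are not regarded as its markers.

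A library stood apart in these genes and had been singled out before the present description: replicate 3 of set m3. Its values are therefore given separately from those of the other 11 tubules, as a description with no test. The libraries otherwise resembled each other in breadth. Between 10983 and 11511 genes reached 1 TPM in a tubule, the highest number being in m3 replicate 3, and between 13236 and 13328 did so in whole kidney. In bulk libraries, fewer cells of a type and less RNA per cell cannot be told apart.

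Of the 4 secreted products, 3 were the most abundant members. Umod (ENSMUSG00000030963, GENCODE M21 on GRCm38, chr7:119462711-119479282, minus strand) encodes uromodulin, the most abundant protein of normal urine. It was at 1992, 1831 and 2119 TPM in the 3 kidney libraries. In the other 11 tubules it ranged from 3.96 to 48.3 TPM with a median of 9.02, and in m3 replicate 3 it was at 1232 TPM. No tubule reached the lowest kidney library, and m3 replicate 3 was 25.5 times the next tubule.

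Wfdc15b (ENSMUSG00000018211, chr2:164214454-164221660, minus strand), a small protein with a whey acidic protein domain, followed the same order. Kidney libraries were at 940, 912 and 1006 TPM, the 11 tubules at 0.62 to 15.3 TPM (median 3.21), and m3 replicate 3 at 446 TPM. Egf (ENSMUSG00000028017, chr3:129677565-129755316, minus strand), which encodes the precursor of epidermal growth factor and is also made in the distal convoluted tubule, was at 590.3, 590.1 and 632 TPM in kidney. In the 11 tubules Egf lay between 1.44 and 16.7 TPM (median 4.01), and in m3 replicate 3 it was at 339 TPM. Sostdc1 (ENSMUSG00000036169, chr12:36314139-36318452, plus strand), a secreted antagonist of bone morphogenetic proteins, was much lower, at 103.8, 84.6 and 88.9 TPM in kidney. Its 11 tubules were at 0 to 1.47 TPM (median 0.23), and m3 replicate 3 was at 34.7 TPM. For each of these secreted products, kidney, m3 replicate 3 and the other tubules occupied 3 separate ranges.

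The salt transport genes showed the same 3 levels. Slc12a1 (ENSMUSG00000027202, chr2:125152505-125230002, plus strand), the furosemide-sensitive cotransporter, was at 307, 361 and 334 TPM in kidney, at 0.13 to 4.62 TPM in the 11 tubules (median 0.84) and at 151 TPM in m3 replicate 3. Kcnj1 (ENSMUSG00000041248, chr9:32372493-32399197, plus strand), the channel also known as ROMK, which is found in the distal tubule and collecting duct as well, was at 177, 166 and 187 TPM in kidney. It was at 0 to 1.47 TPM in the 11 tubules (median 0.35) and at 32.25 TPM in m3 replicate 3. Bsnd (ENSMUSG00000025418, chr4:106483456-106492283, minus strand) encodes barttin, the chloride channel subunit, which distal and intercalated cells also use. It was the lowest member in kidney, at 35.4, 39.97 and 44.7 TPM. Its 11 tubules were at 0 to 0.67 TPM (median 0.06), and m3 replicate 3 was at 10.2 TPM. Among the 11 tubules, 2 were listed at 0 for Bsnd and 1 each for Kcnj1, Ptger3 and Sostdc1.

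The 2 signalling members differed from each other. Ptger3 (ENSMUSG00000040016, chr3:157566892-157645888, plus strand), a prostaglandin E2 receptor that lowers cyclic AMP, was at 55.8, 50.5 and 57.65 TPM in kidney, 0 to 0.84 TPM in the 11 tubules (median 0.22) and 12.9 TPM in m3 replicate 3. Ppp1r1b (ENSMUSG00000061718, chr11:98348404-98357796, plus strand) encodes DARPP-32, which inhibits protein phosphatase 1 when phosphorylated. It was at 80.1, 96.2 and 90.4 TPM in kidney and 48.1 TPM in m3 replicate 3, but the 11 tubules held 3.34 to 12.1 TPM (median 7.60). This median was 8.55% of the kidney mean, whereas the medians of the other 8 genes were between 0.150% (Bsnd) and 0.664% (Egf). Ppp1r1b in m3 replicate 3 was 3.97 times the next tubule, against 15.2 to 32.7 times for the others.

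**Figure D1:**
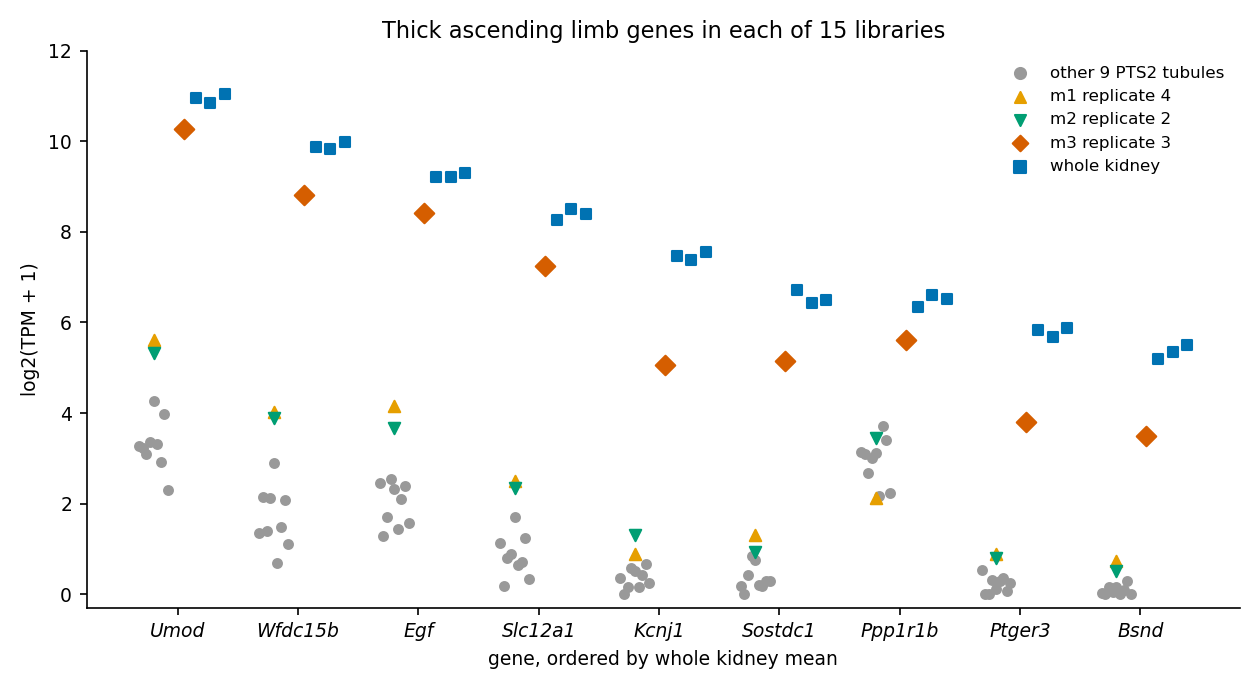
Each point is 1 library; the vertical axis is log2(TPM + 1) and the genes are ordered by their whole kidney mean. For all 9 genes m3 replicate 3 (diamond) lies between the 3 whole kidney libraries (squares) and the other 11 tubules, of which m1 replicate 4 and m2 replicate 2 are drawn as triangles.

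In whole kidney the order of the 9 genes by TPM was Umod, Wfdc15b, Egf, Slc12a1, Kcnj1, Sostdc1, Ppp1r1b, Ptger3 and Bsnd. Only Sostdc1 and Ppp1r1b overlapped as neighbours in that order, Sostdc1 at 92.4 ± 10.1 TPM (SD, n = 3) and Ppp1r1b at 88.9 ± 8.16 TPM (SD, n = 3). In m3 replicate 3 the first 4 and the last 2 held the same places, and Ppp1r1b and Sostdc1 lay above Kcnj1. The 9 genes summed to 4324 ± 218 TPM (SD, n = 3) in whole kidney, 2306 TPM in m3 replicate 3, and 11.65 to 92.1 TPM in the other 11 tubules.

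The makeup of that sum was not the same in m3 replicate 3 as in kidney. Umod held 53.4% of it there and 45.8% ± 1.25 (SD, n = 3) in kidney. Kcnj1 held 1.40% there and 4.08% ± 0.0663 (SD, n = 3) in kidney. Ptger3 held 0.559% against 1.26% ± 0.0406, and Bsnd 0.442% against 0.925% ± 0.0853. Ppp1r1b held 2.09% against 2.06% ± 0.239, which is within the kidney spread. With 1 library on one side, none of these has a replicate check.

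Expressed against the kidney mean, m3 replicate 3 reached 62.2% for Umod, 56.1% for Egf, 54.2% for Ppp1r1b, 46.8% for Wfdc15b and 45.2% for Slc12a1. It reached 37.6% for Sostdc1, 25.5% for Bsnd, 23.6% for Ptger3 and 18.3% for Kcnj1. The secreted products, Slc12a1 and Ppp1r1b were thus nearer to the kidney level than the channel genes Kcnj1 and Bsnd and the prostaglandin receptor.

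A wider list of 49 genes of this segment, written from general knowledge with earlier results of these data known, was read the same way. On the log2(TPM + 1) scale, 11 of them were at least 4 times above the highest other tubule in m3 replicate 3. So were 8 of the 9 members. Ppp1r1b was the exception, at 1.91 on the log2 scale above m3 replicate 1, and it passed when that library was left out (2.17). Over the 12039 genes that averaged 1 TPM or more, 0.44% met this criterion. Since m3 replicate 3 was chosen for these genes, nothing is read from the contrast.

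Among the 11, the claudins of magnesium and calcium passage came nearest to kidney: Cldn19 was at 15.2 TPM (55.97% of kidney) and Cldn16 at 12.55 TPM (55.6%), where no other tubule passed 1.23 TPM for either. Casr, the calcium-sensing receptor, was at 5.53 TPM, 50.6% of kidney. Others were Ckb (brain-type creatine kinase, 37.1%), Wfdc2 (36.5%), Ppp1r1a (a phosphatase 1 inhibitor related to DARPP-32, 34.97%), Tmem207 (48.3%), Tmem72 (22.98%) and Tmem52b (9.12%).

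**Figure D2:**
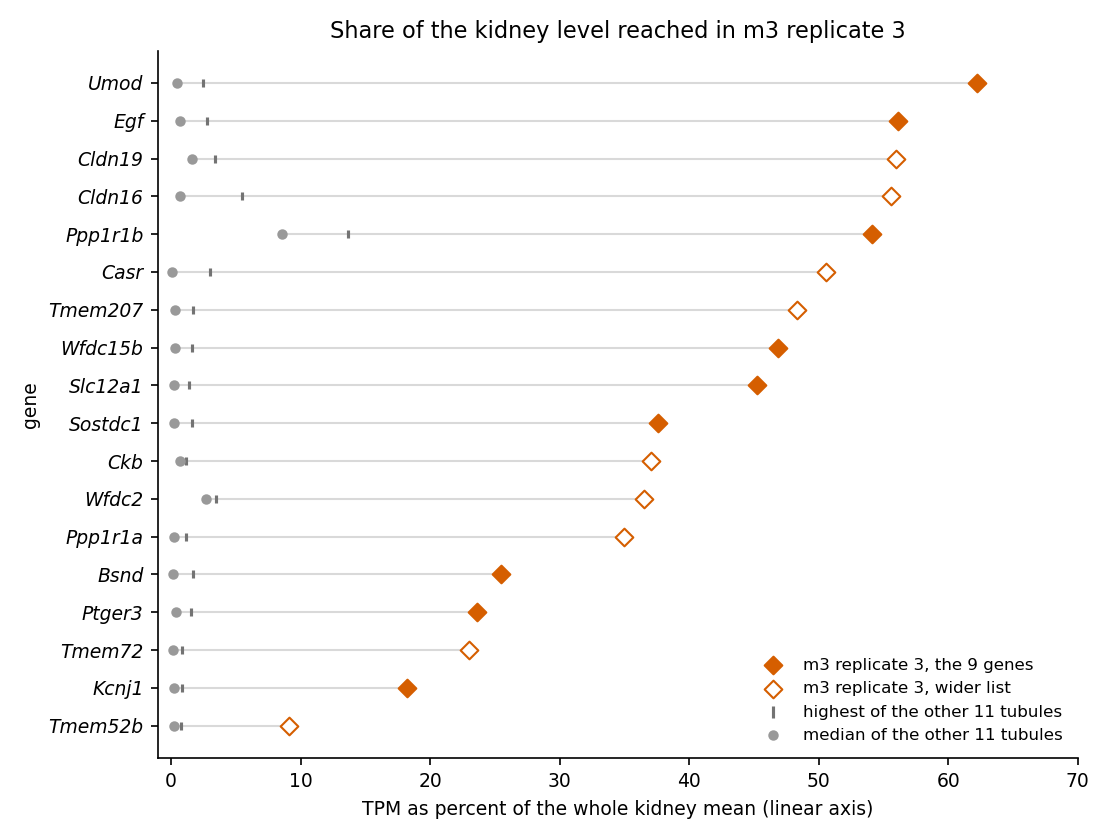
Horizontal axis: TPM as a percent of the whole kidney mean, for the 9 genes (filled diamonds) and 9 genes of the wider list at least 4 times above the highest other tubule (open diamonds), all in m3 replicate 3. The diamonds run from 9.12% for Tmem52b to 62.2% for Umod, and the highest of the other 11 tubules (bars) stays at or below 13.6%, the value of Ppp1r1b.

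Several genes of the wider list did not stand out in m3 replicate 3. The other tubules held them at similar levels, so they do not mark the segment in these libraries. Values are per gene and do not tell the transcript forms of Cldn10, a claudin, apart. Cldn10 was at 344 TPM in m3 replicate 3, and the other 11 tubules were at 298 to 360.3 TPM. Kcnj16, a basolateral potassium channel, was at 208 TPM there and at 156 to 256 TPM in the others. Pth1r, the parathyroid hormone receptor, was at 523 TPM against 504 to 659 TPM. The same held for the transcription factors Pax8, Irx1, Irx2, Irx3 and Pou3f3, each of which lay within the range of the other 11 tubules. Another 4 factors of the list were highest of the 12 in m3 replicate 3, without reaching 4 times the next tubule on the log2(TPM + 1) scale. These were Foxq1 at 3.44 TPM (next 3.04), Sim2 at 1.58 TPM (next 0.36), Tfap2b at 1.44 TPM (next 0.59) and Esrrb at 0.56 TPM (next 0.10). The macula densa genes Nos1, Ptgs2 and Pappa2 were at 0.01, 0 and 0.01 TPM in m3 replicate 3, but their sum in whole kidney was itself only 0.523 ± 0.186 TPM (SD, n = 3).

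Markers of other cells were summed in the same library. The distal convoluted tubule sum (Slc12a3, Trpm6, Pvalb) was 0.42 TPM in m3 replicate 3, which was 0.203% of kidney and within the 0 to 0.55 TPM of the other 11 tubules. The 6 intercalated cell markers summed to 0.44 TPM, 0.259% of kidney, with 1 marker at 0 and the other tubules at 0 to 0.37 TPM. The principal cell sum was 16.3 TPM, against 9.02 to 58.3 TPM in the others. The thin limb markers Slc14a2 and Fst were both listed at 0.

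The connecting tubule list gave 195 TPM in m3 replicate 3, and 189 TPM of it was Klk1, tissue kallikrein. Without Klk1 the other 4 markers summed to 6.46 TPM, within the 2.28 to 9.18 TPM of the other tubules, and 1 was at 0. Klk1 in m3 replicate 3 was 6.74% of its kidney level. Podocyte markers summed to 3.21 TPM, just above the next tubule at 3.12 TPM. Endothelial and stromal sums were the second highest of the 12, at 84.5 TPM (others 22.4 to 89.2) and 6.09 TPM (others 0.2 to 6.12). The macrophage sum was 98.4 TPM, within the 62.3 to 141 TPM of the others. The part of these other cells in the values of the 9 genes was not tested.

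Proximal markers were present in m3 replicate 3 at levels near those of the other tubules. The sum of 8 markers of all proximal segments was 82085 TPM, and the other 11 tubules were at 63462 to 81496 TPM, but Kap, an androgen-regulated kidney protein, made up 63454 TPM of it. Without Kap the sum was 18632 TPM, the second lowest of the 12, with the other tubules at 18290 to 26038 TPM (median 19774). Each of these 7 markers lay below the median of the other tubules, at 0.758 (Miox) to 0.980 (Acsm2) times that median. The S1 sum was 66.1 TPM (others 61.6 to 128), the S2 sum (Slc22a6 and Slc22a8) 446 TPM (others 368 to 1149) and the S3 sum 4658 TPM (others 2696 to 5761), each within the range of the other tubules. Against whole kidney, the median of the other 11 tubules was 3.55% for S1, 91.5% for S2 and 227% for S3 markers. All 12 tubules were above the highest kidney library for S3 markers. For the S2 list, of only 2 genes, this held in 3 tubules, replicate 4 of each set, and for S1 in 0.

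**Figure D3:**
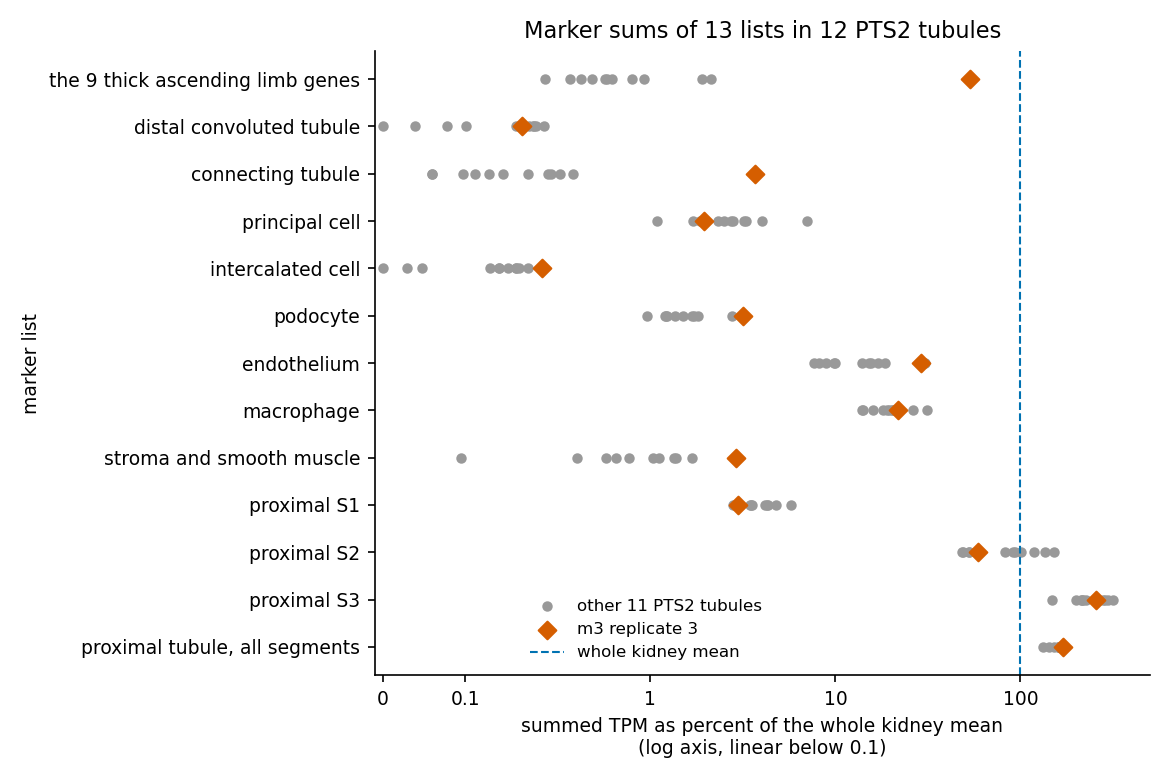
Horizontal axis: the summed TPM of each marker list as a percent of its whole kidney mean (log axis, linear below 0.1); diamonds are m3 replicate 3, grey points the other 11 tubules. The 9 genes sum to 53.3% of kidney in m3 replicate 3 and to at most 2.13% elsewhere; in the connecting tubule row the diamond stands apart through Klk1.

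The whole table was read for other genes with this pattern. In m3 replicate 3, 53 genes were at least 4 times above the highest other tubule. The same count for each of the other 11 libraries was between 1 and 9, but m3 replicate 3 had been singled out for values of this kind. Of the 53, 8 were members, 11 were on the wider list and 34 were on neither. Whole kidney was at or above m3 replicate 3 for 48 of the 53. The filter was a mean of 1 TPM over all 15 libraries, kidney and m3 replicate 3 included. A gene near 0 in the other 11 tubules could enter only through those values, so nothing is read from the 48. The share of all 12039 genes with kidney at or above m3 replicate 3 was not counted. The other 5, named after their values were seen, were Gm24111, Gm24316, Gm22663, Gm23847 and Rny3, of which all but Gm24111 were listed at 0 in whole kidney. Gm24111 is annotated as a microRNA gene, and its 71.7 TPM in m3 replicate 3 compares with a kidney mean of 10.6 ± 18.4 TPM (SD, n = 3), so its value is uncertain. Gm24316, Gm22663 and Gm23847 were at 0 in every other library. TPM keep no depth, so the values of these genes and of Rny3 are uncertain too.

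Among genes on no list and with at least 10 TPM in kidney, the next largest excesses over the highest other tubule were those of Gpx6, Me3, Slc16a7, Pde1a, Tmem213, Mt1, Cldn8, Egfl6 and Slc16a5. Gpx6, a glutathione peroxidase, was at 33.6 TPM in m3 replicate 3, where no other tubule passed 1.77 TPM, and reached 41.5% of kidney. Me3, the mitochondrial malic enzyme that makes NADPH, was at 15.2 TPM (29.6% of kidney), and Slc16a7, a monocarboxylate transporter, at 12.5 TPM (15.98%). Mt1, a metallothionein, was at 95.3 TPM against at most 11.8 TPM elsewhere. Cldn8, a claudin of the distal nephron, was at 8.02 TPM, only 7.96% of kidney.

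**Figure D4:**
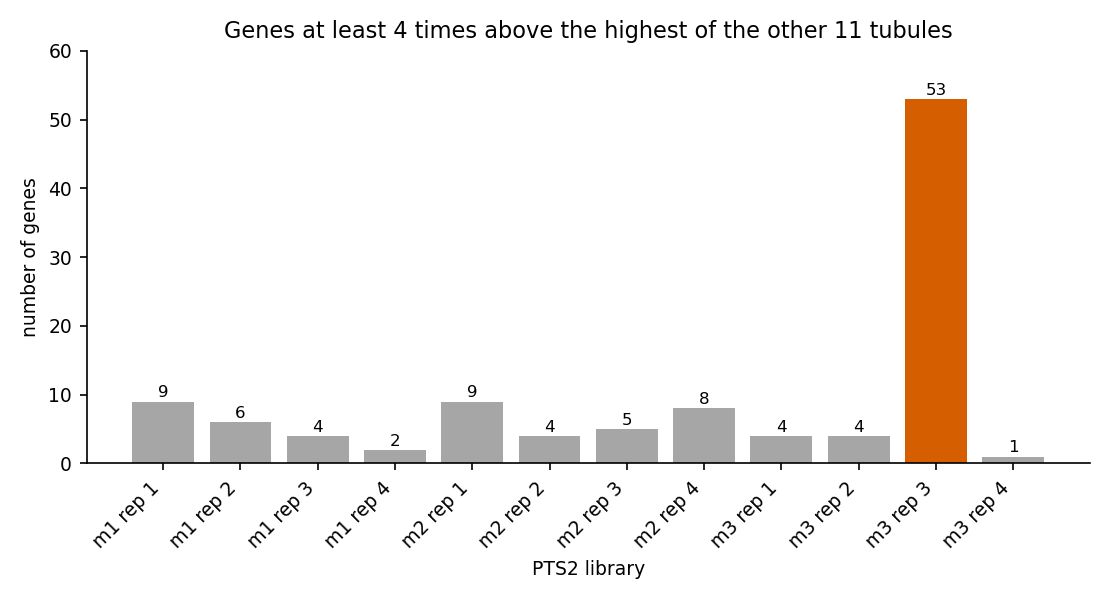
Bars give, for each PTS2 library, the number of genes at least 4 times above the highest of the other 11 tubules on the log2(TPM + 1) scale, among 12039 genes. The count is 53 in m3 replicate 3 and at most 9 in any other library. Of the 53, 8 are members, 11 are on the wider list and 34 on neither. The library m3 replicate 3 had been singled out for its values, so the counts are a description.

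The genes whose profile was most like the mean log2(TPM + 1) of the 9 members were then taken from 9583 genes with at least 5 TPM in kidney. Over the 15 libraries the highest Pearson r, members aside, included those of Ppp1r1a (0.999), Gpx6, Casr, Cldn16 and Cldn19 (0.994 each), Pla1a (0.992) and Egfl6 (0.991). Pla1a, a phospholipase, was at 6.73 TPM in m3 replicate 3 and 11.6 ± 1.04 TPM (SD, n = 3) in kidney. Egfl6 was at 6.81 TPM and 14.1 ± 1.34 TPM. Among the members themselves r was lowest for Ppp1r1b, at 0.952. The 15 points share the contrast between kidney and tubules, so these r describe likeness and carry no p.

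Below m3 replicate 3, a smaller difference in the same genes was seen among the other 11 tubules. For 8 of the 9 genes the highest and second highest of the 11 were m1 replicate 4 and m2 replicate 2, in either order. Umod was at 48.3 TPM in m1 replicate 4 and 38.95 TPM in m2 replicate 2, and the next was m2 replicate 3 at 18.4 TPM. Slc12a1 was at 4.62 and 4.10 TPM in these libraries, and the next at 2.26 TPM. Ppp1r1b aside, m1 replicate 4 reached between 0.487% (Kcnj1) and 2.77% (Egf) of the kidney level, and m2 replicate 2 between 0.832% (Kcnj1) and 1.97% (Umod). Klk1 was also highest in them among the 11, at 14.6 and 11.8 TPM. Aqp2, the water channel of principal cells, was at 6.90 TPM in m1 replicate 4 and at 1.34 TPM in m2 replicate 2. In m3 replicate 3 it was at 1.53 TPM. The principal cell sum was highest in m1 replicate 4, at 58.3 TPM, but Aqp3 made up 43.1 TPM of it. Fxyd4 gave 8.24 TPM there, and the sodium channel markers Scnn1b and Scnn1g were both at 0. Aqp3 was also at 21.4 TPM in m2 replicate 4 and 29.7 TPM in m3 replicate 4. The principal cell sum was 14.1 TPM in m2 replicate 2 and 16.3 TPM in m3 replicate 3. The share of other cells in these libraries was not tested.

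Ppp1r1b ran differently. Its 3 lowest values were in the replicates numbered 4, with m1 at 3.34, m2 at 3.52 and m3 at 3.69 TPM. Its highest values among the 11 were in m3 replicate 1 (12.1 TPM), m2 replicate 2 (9.92 TPM) and m3 replicate 2 (9.60 TPM). So m1 replicate 4 was the highest tubule of the 11 for 7 members and the lowest for Ppp1r1b.

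The 3 sets were compared with limma's F test on log2(TPM + 1) without m3 replicate 3, a contrast that the choice of members did not use. Only Umod, Slc12a1, Egf, Wfdc15b and Ppp1r1b reached a mean of 1 TPM over these 11 libraries, and 0 of these 5 members had an adjusted p under 0.05 or an unadjusted p under 0.05. Over all 11252 genes tested, 1.86% were called. The mean of Umod in m1 was 18.2 ± 20.03 TPM (SD, n = 4), that in m2 18.9 ± 14.1 TPM (SD, n = 4) and that in m3 8.45 ± 5.70 TPM (SD, n = 3), and the limma adjusted p was 0.669. For Ppp1r1b the means were 6.03 ± 2.10, 7.04 ± 2.65 and 8.47 ± 4.33 TPM, with a limma adjusted p of 0.848. With m3 replicate 3 included, 8 members were tested and 0 were called. The spread within sets was wide, so a difference among sets was not detectable here rather than shown to be absent.

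Of the wider list, 27 genes were tested among the sets and 2 were called, among them Sult1d1. Sult1d1, a sulfotransferase, was on the log2 scale 0.44 higher in m2 and 0.30 higher in m3 than in m1, with a limma adjusted p of 0.0164 over the sets. That call was lost without m1 replicate 3 (adjusted p = 0.0563), m2 replicate 2 (0.0586) or m2 replicate 4 (0.0523).

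Against whole kidney, the 11 tubules were compared with limma on log2(TPM + 1), with the set as a correlated block. This contrast was known when the 9 genes were chosen, so their calls are a description. All 9 members were lower in the tubules, 4 of them having entered the fit only through their kidney values, where 41.2% of the 12069 genes tested were lower and 9.40% higher. For all 9, each of the 12 tubules was below each kidney library, m3 replicate 3 included. Over all genes, 32.0% were separated in this way.

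Of the 49 wider list genes, 39 entered the fit, 12 of them only through their kidney values, since their mean over the 11 tubules was under 1 TPM. Of the 39, 28 were lower in the tubules at an adjusted p under 0.05, 0 were higher and 11 were not called. The 12 had to differ to enter and were all lower, and of the other 27, 16 were lower. The median log2 difference over these 27 was -0.56, and over all genes tested it was -0.27. All genes tested include those that entered only through kidney, so the medians are not over like sets. No background limited to genes at the filter in the tubules was taken. The named genes of the next sentences come from the 27. Of 7 transport genes, 6 were lower. Slc5a3, a myo-inositol transporter, was lower by a log2 value of -3.53 (limma adjusted p = 3.51e-09), and Atp1b1 by -0.56 (limma adjusted p = 4.29e-05). Of 6 regulators, 5 were lower, among them the kinase Wnk1 by -4.00 on the log2 scale (limma adjusted p = 8.02e-14). In m3 replicate 3 Wnk1 was at 9.20 TPM, 9.05% of kidney, and values per gene do not tell its transcript forms apart. Neither of the 2 claudins was called, Cldn10 at -0.14 (limma adjusted p = 0.205) and Cldn3 at 0.50 (limma adjusted p = 0.313).

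Of 7 transcription factors, 1 was lower, Foxq1 by -1.83 on the log2 scale (limma adjusted p = 8.22e-05). The other 6, Pax8, Pou3f3, Irx1, Irx2 and Irx3 among them, were not called. Of 5 further genes of the wider list, 4 were lower, among them Ckb by -6.43 (SE 0.20, limma adjusted p = 1.39e-13), and Sult1d1 was not called. The genes that entered only through kidney included Casr, Avpr2 (the vasopressin V2 receptor), Cldn16, Cldn19, Tfap2b, Sim2, Tmem207, Tmem72, Tmem52b and Ppp1r1a, and no test is read for them. None of the 3 macula densa genes reached the filter. Under median-of-ratios rescaling, which moved the median of all genes to -0.03, 25 list genes were lower and 3 (Pax8, Pth1r and Sult1d1) higher. Under quantile normalization, which moved it to 0.16, 28 were lower and 3 (Irx1, Pou3f3 and Slc9a2) higher.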

How the data were processed

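The deposited table holds TPM values by the authors for 15 libraries. Per the submitters' processing notes, STAR 2.5.1b, RSEM 1.2.31 and GRCm38.p5 were used. Per the labels' protocols, polyA RNA was amplified with a kit for very low input. Each column sums to 1000000, which is how the unit was recognized. The authors' 4 columns of means and standard errors (deposited, other statistics) were not used. The members and gene lists were chosen with earlier results of these data known.

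Libraries were grouped by their description labels. Group differences came from limma 3.58.1 run under R 4.3.3 (lmFit, eBayes with trend) on log2(TPM + 1), for genes averaging 1 TPM or more in the fit, with Benjamini-Hochberg adjustment over all genes tested and a threshold of 0.05. The set was a correlated block against kidney (correlation 0.0519). Both fits were tested on simulated data. Replicate 3 of m3 was left out of the fits and put back as an alternative. No 2 columns were identical. Other values came from Python 3.11.15 with numpy 2.4.6 and pandas 2.3.3, and figures from matplotlib 3.10.9. Gene positions are from GENCODE M21 (GRCm38). Named genes were the 9 members, the wider list, the 8 genes most like the members, and the 10 unlisted genes with the largest excess in m3 replicate 3. Results for some of these genes are not reported here. The alternatives are named in the closing section.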

Additional observations from a re-analysis of the deposited data

Results flagged for a closer look

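Within each set of 4 tubules, the gap between the highest or lowest library and its neighbour was set against the range of the set for each of the 9 genes. Of 27 such tests, 10 stood out. At the cutoff used, about 1 in 20 groups of normally distributed values would be flagged. TPM near 0 need not follow that distribution, so the rate is nominal. The tests are not separate chances either, since the genes vary together, and 8 of the 10 concern the library singled out for these values. Nothing is read from the count. In m3, replicate 3 was far above the rest for 8 genes: Umod at 1231.96 TPM (next 14.9), Slc12a1 at 150.97 TPM (next 1.37), Egf at 338.91 TPM (next 4.21), Wfdc15b at 446.41 TPM (next 3.21), Ptger3 at 12.89 TPM (next 0.29), Kcnj1 at 32.25 TPM (next 0.6), Bsnd at 10.2 TPM (next 0.23) and Sostdc1 at 34.72 TPM (next 0.23). In m1, replicate 4 was far above the rest for Umod, at 48.28 TPM (next 8.68), and for Wfdc15b, at 15.29 TPM (next 3.45).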

How the results depend on the processing

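All 9 members stayed lower than kidney in each fit that tested them, and 0 members were called among the sets in any fit. The count of members at least 4 times above the other tubules in m3 replicate 3 was 8 in most settings and 8 to 9 with single tubules left out. TPM give no depth, so values near 0 have no counting limit. Genes lower in the tubules numbered 4970, but 8202 with no filter, 2083 at a mean of at least 10 TPM, 3000 under median-of-ratios rescaling, 2267 under quantile normalization, and 3662 to 5388 with single libraries left out. Genes higher numbered 1135, but 2610 and 4164 under those scalings, so that 46.5% and 64.7% of calls were higher against 18.6%, and 779 to 1291 with single libraries left out. Wider list genes lower numbered 16 at a mean of at least 10 TPM, where 24 were tested, and 26 to 29 with single libraries left out. Wider list genes higher numbered 0, but 3 under each scaling, and 0 to 1 with single libraries left out. Calls among the sets numbered 209, but 117 with no filter, 341 with m3 replicate 3 included, and 119 (without m3 replicate 1) to 322 (without m1 replicate 1). Wider list calls among the sets were 1 with no filter and 1 to 2 with single libraries left out. With m1 replicate 4 and m2 replicate 2 both left out, chosen after seeing the data, calls among sets were 99, of which 1 was on the wider list. With a replicate block in the fit, 461 genes were called among the sets and 1 wider list gene (Cldn3) was higher than kidney, and no member changed its call. Deviations of same-numbered tubules correlated at over 0.1 in 7 of 10 pairs (mean 0.153), against 2 of 30 differently numbered pairs (mean -0.051), a hint from the data of something shared. All 10 same-numbered pairs were positive, the lowest at 0.020. As not all pairs passed 0.1, and the labels state no shared source, the numbers were not taken as pairing. If they do mark a shared source, the main fit among the sets leaves it out. Genes of the wider list with no call changed sign in some fits. Under median-of-ratios rescaling Cldn10 was at 0.12, Irx3 at 0.073 and Pou3f3 at 0.18 on the log2 scale. Under quantile normalization Irx3 was at 0.29, Oxsr1 (lower before, with a limma adjusted p of 0.0448) at 0.32, Pou3f3 at 0.80 and Sult1d1 at -0.031. Irx1 was at -0.052 with a pseudocount of 0.1, and Pou3f3 at 0.046 with the replicate block. With single libraries left out, Irx1 was at -0.060 to 0.11, Pou3f3 at -0.070 to 0.052 and Sult1d1 at -0.051 to 0.22. The cause of these changes was not tested.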

Other observations

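The low level of Ppp1r1b in the tubules numbered 4 was shared by 3 of the 49 genes of the wider list, picked out after their values were seen. Kng2, which encodes a kininogen, was at 38.6, 59.7 and 79.1 TPM in replicate 4 of m1, m2 and m3, and at 114 to 201 TPM in the other 9 tubules. Cldn3, a claudin of several tubule segments, was at 7.97, 18.3 and 22.5 TPM in these libraries and at 23.1 to 53.9 TPM in the others. Irx1, a transcription factor, was at 0.55 to 1.79 TPM in these libraries and at 1.92 to 4.40 TPM in the others. A replicate 4 difference was not confined to this gene group. The S3 sum was also lowest in replicate 4 of m1, m2 and m3, at 2696, 3625.4 and 3873.5 TPM (next 3923.6). The S2 sum was highest in them, at 1148.8, 892.26 and 1023.9 TPM (next 762.08). The share of all genes with such a pattern was not counted. The labels do not say what the replicate number stands for, and no test was made.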
